A study of Mus musculus with 12 samples.

Results

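Selk, Sels and Selo are 3 of the 23 selenoprotein genes in the tables. They were chosen by name and by position, as the selenoproteins outside the thioredoxin reductases whose UGA codon for selenocysteine (Sec) stands 1 or 2 codons before the end of the protein. Livers of FVB/N mice were profiled by ribosome footprints and by total RNA, whose values are called mRNA here. The TrspA37G mice carried 20 transgene copies of a mutant Sec tRNA, and the Wt mice were wild type. Each genotype was kept for 6 weeks on a diet with 0, 0.1 or 2.0 ppm selenium. Each of the 6 combinations gave 1 footprint and 1 mRNA library, 12 in all, so that no group has a replicate. The number of mice behind a library was not given in the sources used here, and the age in the labels, 3 weeks, is shorter than the time on the diets and was not taken as the age at sampling.

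Sec is inserted at UGA codons, which elsewhere end translation, by a dedicated tRNA that reads them with the help of an element in the 3′ untranslated region. The mutant tRNA has a changed base next to its anticodon, where the normal tRNA carries a modified adenosine, and mice with it are known for low levels of stress-related selenoproteins such as the glutathione peroxidase Gpx1. When selenium is scarce, selenoproteins lose expression to different degrees, and part of that loss is known to come from mRNA decay started by ribosomes that stop at the UGA. In Selk, Sels and Selo nearly the whole reading frame lies before the UGA. Footprints over it report ribosomes that have not yet met the Sec codon, so the values below describe mRNA and ribosome load and not passage of the UGA.

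Selk (Selenok) and Sels (Selenos, also called VIMP) are membrane proteins of the endoplasmic reticulum (ER) that take part in ER-associated degradation, the removal of misfolded proteins, and Selk also works with a palmitoyltransferase. Selo (Selenoo) is a mitochondrial protein with a kinase-like fold that transfers AMP to other proteins. Positions are given in build GRCm38 from GENCODE release M21, since the deposited tables hold no coordinates. Selk lies on chromosome 14 at 29968308 to 29975662, Sels on chromosome 7 at 66079649 to 66089405 and Selo on chromosome 15 at 89089084 to 89100340, all on the plus strand. Each reading frame holds 1 in-frame UGA. In Selk it is codon 92 of 94, at 29973440 to 29973442 in exon 4 of 5, and that exon ends 5 nt after it. In Sels it is codon 189 of 190, at 66088844 to 66088846 in the last exon, exon 6. In Selo it is codon 665 of 667, at 89099975 to 89099977 in the last exon, exon 9. The last 14 codons of the 3 frames, stop codon included, are shown because they place the Sec codon, in capitals, against the end of each protein:
Selk: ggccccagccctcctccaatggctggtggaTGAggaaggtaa
Sels: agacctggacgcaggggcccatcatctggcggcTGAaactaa
Selo: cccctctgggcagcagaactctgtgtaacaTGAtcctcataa

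All 3 frames end on TAA. After the Sec codon, Sels has 1 more amino acid codon and Selk and Selo have 2. The base after the UGA was G in Selk, A in Sels and T in Selo. Only the thioredoxin reductases Txnrd1, Txnrd2 and Txnrd3 have their last UGA as close to the end among the 23 genes. The tables also have a window 3′ of the UGA. For Selk, Sels and Selo all 36 values in it were listed at 0, so no ratio of footprints across the UGA exists for them.

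The mRNA values are in RPKM (reads per kilobase of mRNA, scaled to the mapped reads of the library) and the footprints in RPFKM, the same unit counted over the coding sequence (CDS). Translational efficiency is the footprint value divided by the mRNA value of the same genotype and diet. From the deposited values, whole reads were recovered, with 17763406 to 30296837 mapped reads in the footprint libraries and 10669213 to 16709701 in the mRNA libraries. The CDS window was inferred from its length. If it starts at codon 16, it ends at codon 90 in Selk, 186 in Sels and 663 in Selo, before the UGA in each. The liver selenoproteins Sepp1 (1494 to 3045 RPKM), Gpx1 (351 to 2437 RPKM) and Dio1 (28.8 to 135 RPKM) were present in all 6 mRNA libraries, and no other marker of the tissue is in the tables. In bulk liver, fewer cells of a type and less RNA per cell cannot be told apart. Every value was scaled to 1 total per library. The tRNA transgene itself is not in the tables, so the genotype labels were not checked.

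Selk and Selo share sequence with other genes, which bears on their levels. RefSeq lists 8 pseudogenes of Selk and none of Sels or Selo. Of the 30-nt stretches in the Selk window, 160 of 196 (81.6%) also occur in other annotated transcripts, most of them named as Selk pseudogenes. In Sels the share was 0 of 484. In Selo it was 522 of 1915 (27.3%), all of them in Tubgcp6, a gene annotated on the opposite strand that overlaps the 3′ end of Selo. Over the whole annotated transcript the share was 310 of 1649 (18.8%) in Selk and 891 of 2354 (37.85%) in Selo. How reads that map more than once, or to either strand, were counted was not given in the sources used here. Levels of Selk are therefore uncertain, and for Selo reads of the antisense gene cannot be told apart; the part of either in the results was not tested.

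The mRNA of all 3 genes was present in every library, and diet moved it less than it moved the footprints of Selk described below. In TrspA37G liver, Selk mRNA was at 21.5, 27.0 and 27.8 RPKM at 0, 0.1 and 2.0 ppm. In Wt liver it was at 21.6, 30.05 and 23.7 RPKM. The 2 libraries at 0 ppm thus held the least Selk mRNA, and TrspA37G and Wt were closest on that diet. Sels mRNA was at 41.7, 51.3 and 48.1 RPKM in TrspA37G liver and at 53.2, 61.8 and 53.9 RPKM in Wt liver. Both genotypes were highest at 0.1 ppm, and TrspA37G was below Wt on each of the 3 diets. Selo mRNA was at 32.3, 35.6 and 46.8 RPKM in TrspA37G liver, where it climbed with selenium. In Wt liver it was at 50.1, 42.6 and 50.5 RPKM, lowest at 0.1 ppm. Over the 6 libraries the highest value was 1.39-fold the lowest in Selk, 1.48-fold in Sels and 1.56-fold in Selo.

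Footprints set the 3 genes apart. Selk footprints in TrspA37G liver were at 4.77, 11.6 and 13.9 RPFKM at 0, 0.1 and 2.0 ppm, from 31, 78 and 69 reads. In Wt liver they were at 4.83, 10.7 and 9.76 RPFKM, from 26, 73 and 39 reads. In order, TrspA37G at 2.0 and 0.1 ppm and Wt at 0.1 and 2.0 ppm lay above Wt and TrspA37G at 0 ppm. The 95% counting intervals of the first 4 overlap each other, as do those of the 2 libraries at 0 ppm (3.24 to 6.78 in TrspA37G and 3.15 to 7.07 RPFKM in Wt). Wt at 2.0 ppm, with an interval of 6.94 to 13.3, touches the upper end of Wt at 0 ppm only. Such an interval takes in counting error alone. Reads were not tagged as single molecules, and variation between mice is outside it.

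Sels had the highest footprint value in RPFKM of the 3 genes in every library, though Selo, with its longer CDS, had more footprint reads. In TrspA37G liver they were at 69.2, 79.0 and 72.7 RPFKM at 0, 0.1 and 2.0 ppm, and in Wt liver at 90.4, 97.3 and 102 RPFKM. All 3 TrspA37G values lay below all 3 Wt values, and within a genotype the diets differed little. The intervals of TrspA37G at 2.0 ppm overlap those of its 2 other diets, and in Wt neighbouring diets overlap. Selo footprints were at 18.6, 26.6 and 33.5 RPFKM in TrspA37G liver, from 1044, 1543 and 1442 reads. In Wt liver they were at 36.2, 38.8 and 40.7 RPFKM, from 1684, 2283 and 1406 reads. The TrspA37G values climbed with each diet and their intervals do not overlap, and all of them lay below those of Wt, with the interval of TrspA37G at 2.0 ppm (31.8 to 35.3) overlapping that of Wt at 0 ppm (34.5 to 37.9). In Wt the intervals of neighbouring diets overlap.

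**Figure D1:**
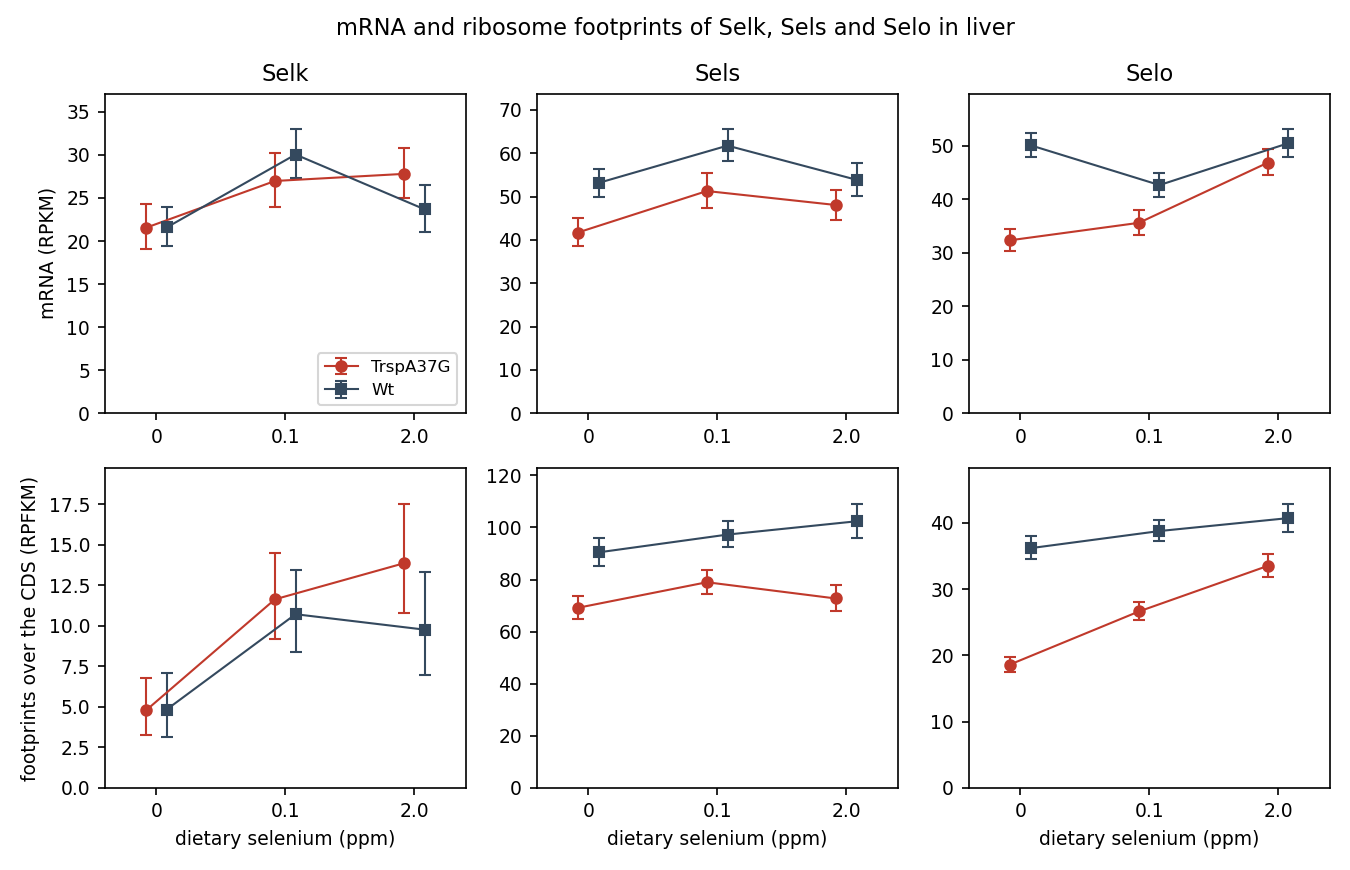
mRNA (upper row, RPKM) and footprints over the CDS (lower row, RPFKM) of Selk, Sels and Selo against dietary selenium in ppm, with TrspA37G as circles and Wt as squares. Each point is 1 library and bars are 95% Poisson counting intervals; Selk footprints at 0 ppm, 4.77 in TrspA37G and 4.83 in Wt, sit below those at 0.1 and 2.0 ppm, and all TrspA37G values of Sels and Selo footprints sit below all Wt values.

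Relative to its mRNA value, Selk had few counted ribosome footprints and Sels many. The efficiency of Selk was 0.222, 0.431 and 0.498 in TrspA37G liver at 0, 0.1 and 2.0 ppm and 0.224, 0.356 and 0.412 in Wt liver. It was highest at 2.0 ppm and lowest at 0 ppm in both genotypes. Among the genes with a value it stood 15th of 19, 15th of 20 and 14th of 20 from the top in TrspA37G, and 17th, 18th and 18th of 20 in Wt. Of the 30-nt stretches, 81.6% in the Selk window but 18.8% over its whole annotated transcript also occur in other transcripts. That annotated transcript is 1678 nt long, while 1018 nt was the shortest length that fit the deposited Selk mRNA values. The share in the mRNA that was counted may therefore differ from 18.8%. The footprint and mRNA values of Selk may be affected unequally, which was not tested. With mRNA over the same CDS window, Selk efficiency was 0.272, 0.517 and 0.529 in TrspA37G and 0.219, 0.385 and 0.425 in Wt. The efficiency of Sels was 1.66, 1.54 and 1.51 in TrspA37G liver and 1.70, 1.58 and 1.90 in Wt liver. These values took places 2, 4 and 6 in TrspA37G and 3, 5 and 3 in Wt. Selo lay near the median of the genes, at 0.576, 0.748 and 0.715 in TrspA37G liver and 0.722, 0.909 and 0.807 in Wt liver. The median over the genes was 0.582, 0.637 and 0.641 in TrspA37G and 0.853, 0.980 and 1.16 in Wt.

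**Figure D2:**
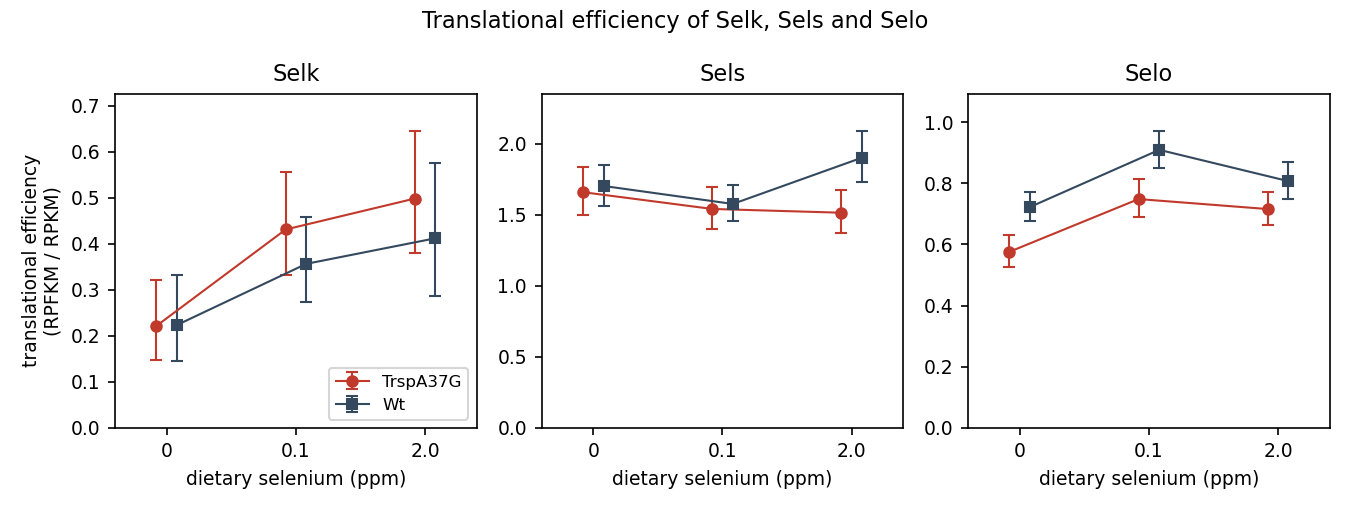
Translational efficiency (RPFKM over RPKM, no unit) of Selk, Sels and Selo against dietary selenium in ppm, with TrspA37G as circles and Wt as squares. Each point is 1 pair of libraries with its 95% counting interval; Selk is lowest at 0 ppm in both genotypes, at 0.222 in TrspA37G and 0.224 in Wt, and Sels lies above 1.5 in all 6 pairs.

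These levels depend in part on the region used for mRNA. Over the CDS alone, mRNA was 0.815 to 1.02 times its value over the whole mRNA for Selk, 1.31 to 1.42 times for Sels and 1.14 to 1.16 times for Selo. The footprints hardly depended on it. The part of the CDS window that is not in the window 5′ of the UGA covers 12 nt in Selk and Selo and 9 nt in Sels, and held 0 to 2 footprints per library in Selk, 3 to 8 in Sels and 4 to 14 in Selo.

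The first comparison asks what removing selenium from the diet did to genes whose footprints lie before the Sec codon. Of the 3 genes Selk alone was called, with lower footprints at 0 than at 0.1 ppm in both genotypes. Sels footprints were within 1.14-fold and those of Selo within 1.43-fold in both genotypes, and none of the mRNAs was called. For a pair of libraries, a gene is called here when the ratio is at least 1.5-fold and its 95% counting interval excludes 1. With 1 library on each side this compares libraries and no p is given.

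In TrspA37G liver, Selk footprints were 2.44-fold lower at 0 than at 0.1 ppm (interval 1.59 to 3.82). In Wt liver they were 2.22-fold lower (1.40 to 3.62). Lower footprints were common among selenoproteins on this diet. By this rule 14 of 20 genes (70%) were lower in TrspA37G and 11 of 20 (55%) in Wt, so 1 of 3 is no more than the background. The log2 ratio of Selk was -1.28 in TrspA37G and -1.15 in Wt, beside medians over the 20 genes of -1.08 and -0.73. Selo footprints were 1.43-fold lower in TrspA37G (1.32 to 1.55) and 1.07-fold lower in Wt (1.01 to 1.14), neither past the threshold. Sels footprints were 1.14-fold lower in TrspA37G (1.05 to 1.24) and 1.08-fold lower in Wt (0.995 to 1.16). Counted from the lowest ratio, Selk took place 5 of 20 in TrspA37G and place 6 in Wt, Selo place 16 in both, and Sels place 18 in TrspA37G and place 15 in Wt.

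The lowest mRNA ratio of the 3 was that of Selk in Wt, 1.39-fold lower at 0 than at 0.1 ppm (1.21 to 1.60), against 1.25-fold lower in TrspA37G (1.06 to 1.48). Sels mRNA was 1.23-fold lower in TrspA37G (1.10 to 1.37) and 1.16-fold lower in Wt (1.07 to 1.27). Selo mRNA was 1.10-fold lower in TrspA37G (1.00 to 1.21) and 1.17-fold higher in Wt (1.10 to 1.26). None of these 6 ratios was past the threshold, where 6 of 20 genes (30%) were lower in TrspA37G and 4 of 20 (20%) in Wt.

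Efficiency at 0 ppm was lower for Selk in TrspA37G, by 1.95-fold (1.22 to 3.15), in a comparison where 7 of 20 genes (35%) were lower. In Wt it was 1.59-fold lower, with an interval of 0.981 to 2.65 that includes 1, so it was not called; 6 of 20 genes (30%) were lower there. The difference between the genotypes in this response was log2 -0.29 with an interval of -1.22 to 0.65, so the 2 responses were not told apart at this depth. Selo efficiency was 1.3-fold lower in TrspA37G (1.15 to 1.47) and 1.26-fold lower in Wt (1.15 to 1.38). Sels efficiency was 1.08-fold higher in both, with intervals of 0.938 to 1.24 in TrspA37G and 0.963 to 1.21 in Wt. Over the windows 5′ of the UGA for both footprints and mRNA, Selk in TrspA37G was 1.84-fold lower with an interval of 0.993 to 3.41, and the call ended.

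Fitting genotype and diet together over the 6 libraries of an assay gives the only test across libraries. In it (limma on log2(value + 0.1), Benjamini-Hochberg adjustment over 20 genes, two-sided), Selk footprints fell by 1.20 on the log2 scale at 0 against 0.1 ppm (SE 0.23, adjusted p 0.0273), lower in both of the 2 genotypes. The same fit called 7 of 20 genes lower (35%). Selk efficiency fell by 0.80 (SE 0.15, limma adjusted p 0.0398), where 4 of 20 genes were lower (20%). Selk mRNA, at log2 -0.40 (SE 0.22, limma adjusted p 0.256), did not pass, where 3 of 20 genes were lower (15%). Sels had log2 -0.15 in footprints (limma adjusted p 0.545) and Selo -0.31 (limma adjusted p 0.362). Spread in this fit is what is left after adding genotype and diet, with 2 residual degrees of freedom, so it holds any interaction and all variation of animals and libraries together. With only the 4 libraries of the diets compared, both calls for Selk ended (limma adjusted p 0.116 for footprints and 0.164 for efficiency). The efficiency call of Selk also ended with a pseudocount of 1 (limma adjusted p 0.0539), with no filter on low values (0.0611) and with scaling to the median selenoprotein (-0.40, limma adjusted p 0.308).

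Scaling to the median selenoprotein changes these statements. It removes a median shift of log2 -1.08 in TrspA37G and -0.73 in Wt from footprints at 0 against 0.1 ppm. The reference is the selenoproteins themselves, of which 70% in TrspA37G and 55% in Wt were called lower. A scaled value above 0 is thus higher relative to the median selenoprotein and need not be a rise. Selk then had log2 -0.20 and -0.42, with intervals that include 0, and the limma effect was -0.54 (adjusted p 0.335). Sels turned to 0.89 in TrspA37G and 0.63 in Wt, and Selo to 0.57 and 0.63, of which all but Selo in TrspA37G were past the rule as higher. Over all 20 genes the scaled footprints were higher in 4 and lower in 3 in TrspA37G, and higher in 5 and lower in 5 in Wt. The limma effects under this scaling did not pass for Sels (0.51, adjusted p 0.335) or Selo (0.35, adjusted p 0.438). In efficiency the scaled ratio of Selk in TrspA37G was -0.65 with an interval of -1.35 to 0.02, and its call ended. Sels in Wt was past the rule as higher in scaled efficiency, at 0.62, a call not set against the count over all 20 genes.

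**Figure D3:**
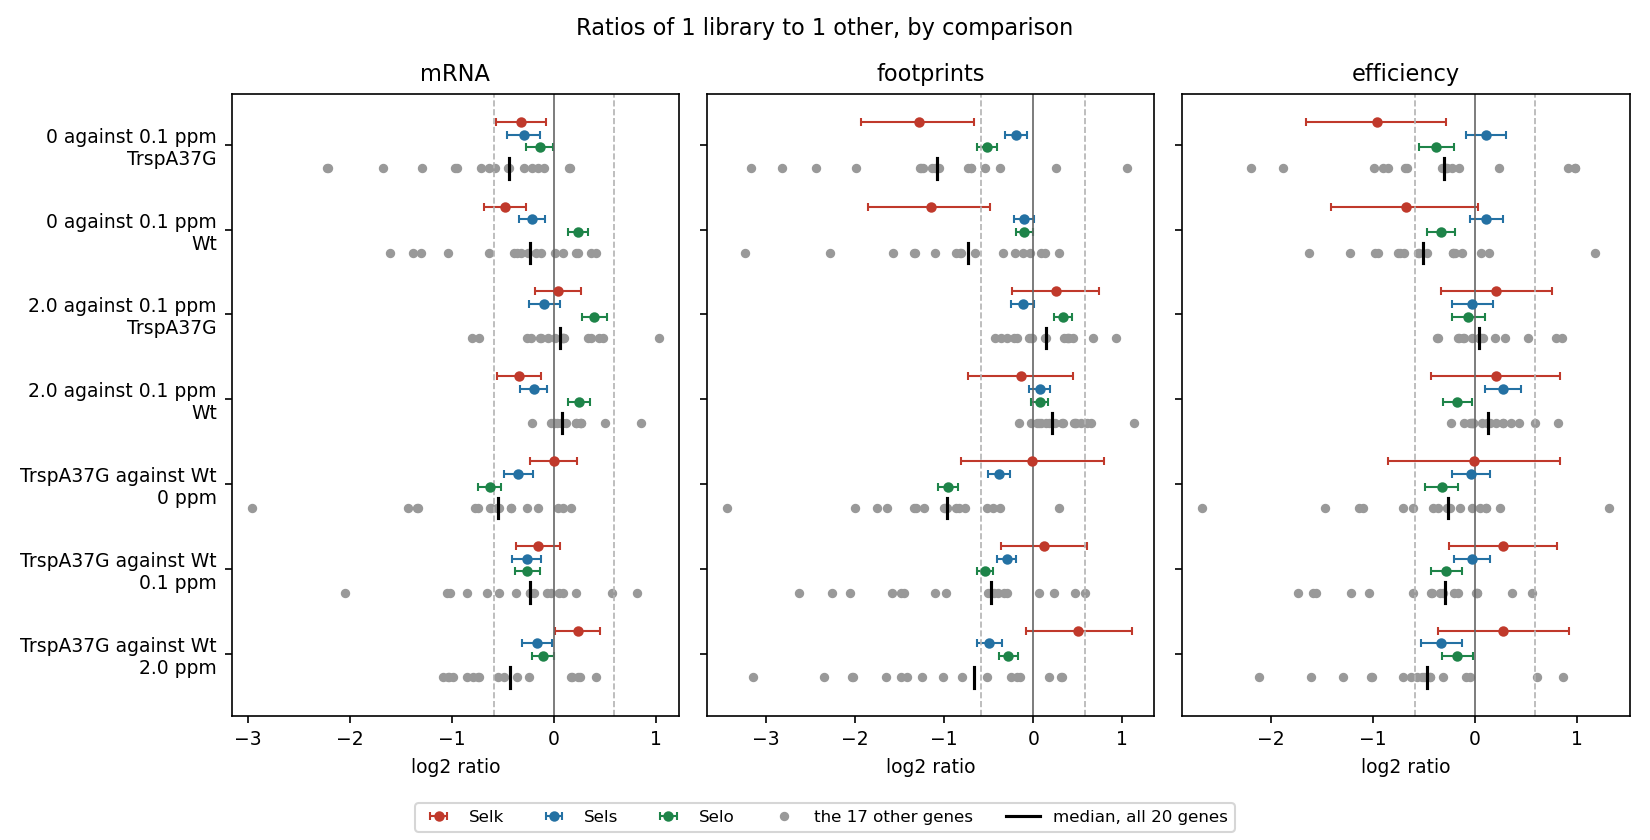
Log2 ratios of 1 library to 1 other (pairs of libraries for efficiency) in the 7 comparisons, for mRNA, footprints and efficiency, with Selk, Sels and Selo in colour with 95% counting intervals, the other genes as grey points and the median of all 20 genes as a black bar. Dashed lines mark 1.5-fold; at 0 against 0.1 ppm Selk footprints lie at -1.28 in TrspA37G and -1.15 in Wt, while Sels lies at -0.19 and -0.11.

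The second comparison asks whether selenium above 0.1 ppm adds to expression. At 2.0 against 0.1 ppm, 0 of the 3 genes was past the rule in mRNA, footprints or efficiency in either genotype. Among all 20 genes, 0 were lower in footprints and 0 higher in TrspA37G, and 3 (15%) were higher in Wt. In mRNA 1 gene (5%) was lower in TrspA37G and 1 (5%) higher in Wt, and in efficiency 1 (5%) was higher in Wt. The largest mRNA ratio of the 3 was that of Selo in TrspA37G, 1.32-fold higher (1.21 to 1.43), beside 1.18-fold higher in Wt (1.10 to 1.27). Selk mRNA was 1.27-fold lower in Wt (1.09 to 1.47), the lowest of all 20 genes there, and 1.03-fold higher in TrspA37G (0.882 to 1.21). Sels mRNA was 1.07-fold lower in TrspA37G (0.960 to 1.19) and 1.15-fold lower in Wt (1.05 to 1.26). In footprints, Selo was 1.26-fold higher in TrspA37G (1.17 to 1.35) and 1.05-fold higher in Wt (0.982 to 1.12). Selk footprints were 1.19-fold higher in TrspA37G (0.849 to 1.67) and 1.10-fold lower in Wt (0.734 to 1.66). Sels footprints were 1.09-fold lower in TrspA37G (0.993 to 1.19) and 1.05-fold higher in Wt (0.969 to 1.14).

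Efficiency of the 3 genes at 2.0 against 0.1 ppm stayed within 1.21-fold. For Sels it was 1.02-fold lower in TrspA37G (0.888 to 1.17) and 1.21-fold higher in Wt (1.07 to 1.36). For Selo it was 1.05-fold lower in TrspA37G (0.937 to 1.17) and 1.13-fold lower in Wt (1.02 to 1.24), the second lowest of the 20 genes in Wt. Selk was 1.16-fold higher in both, with intervals of 0.794 to 1.68 in TrspA37G and 0.742 to 1.78 in Wt. In the fit over genotypes limma called 0 of 20 genes in any of the 3 measures, with 1 gene at an unadjusted p below 0.05 in footprints and 0 in mRNA and efficiency. The 95% limma intervals for Selk were -0.57 to 0.69 in footprints and -0.23 to 0.64 in efficiency (log2), which do not exclude a change of 1.5-fold.

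The third comparison sets TrspA37G against Wt on the same diet. Of the 3 genes Selo alone was called, and at 0 ppm alone. Its mRNA was 1.55-fold lower in TrspA37G there (1.43 to 1.68), at 32.3 RPKM against 50.1 RPKM in Wt. Its footprints were 1.94-fold lower (1.80 to 2.10), at 18.6 RPFKM against 36.2 RPFKM in Wt. By the same rule 9 of 20 mRNAs (45%) and 12 of 20 genes in footprints (60%) were lower in TrspA37G at 0 ppm, so 1 of 3 is below the background in both. The ratio of Selo footprints, log2 -0.96, was as large as the median of the 20 genes, -0.96, and that of its mRNA, -0.63, was near the median of -0.55. Scaled to those medians, Selo was at 0.01 in footprints and -0.08 in mRNA, and neither was called, while Selk footprints were called higher in TrspA37G, at 0.95 (0.15 to 1.76). The scaled counts over all 20 genes at 0 ppm were 1 higher and 4 lower in mRNA, and 3 higher and 2 lower in footprints.

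The Selo footprints were closer between genotypes with more selenium. They were 1.46-fold lower in TrspA37G at 0.1 ppm (1.36 to 1.55) and 1.22-fold lower at 2.0 ppm (1.13 to 1.31). Its mRNA was 1.20-fold lower at 0.1 ppm (1.10 to 1.3) and 1.08-fold lower at 2.0 ppm (1.00 to 1.16). Its efficiency was 1.25-fold, 1.22-fold and 1.13-fold lower in TrspA37G at 0, 0.1 and 2.0 ppm, with all 3 intervals off 1. Sels footprints at 0 ppm were 1.31-fold lower in TrspA37G (1.20 to 1.43). The ratio was 1.23-fold at 0.1 ppm (1.14 to 1.33) and 1.41-fold at 2.0 ppm (1.28 to 1.55), also lower. Sels mRNA was lower by 1.27-fold, 1.20-fold and 1.12-fold on the 3 diets. None of these ratios of Sels reached 1.5-fold.

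Selk did not have lower footprints in TrspA37G on any diet by this rule. Its footprints were 1.01-fold lower at 0 ppm (0.577 to 1.76), 1.09-fold higher at 0.1 ppm (0.779 to 1.51) and 1.42-fold higher at 2.0 ppm (0.945 to 2.16). At 2.0 ppm this log2 ratio of 0.51 was the highest of the 20 genes, beside a median of -0.67, but its interval includes 0. Scaling to the median selenoprotein takes away footprint medians of log2 -0.96, -0.48 and -0.67 at 0, 0.1 and 2.0 ppm. Relative to these, Selk footprints were past the rule as higher in TrspA37G on all 3 diets, at log2 0.95, 0.60 and 1.17. At 2.0 ppm scaled Selk mRNA was also past the rule (0.66). The scaled counts over all 20 genes are given above for 0 ppm only. At 0.1 and 2.0 ppm these scaled calls of Selk are therefore not set against a background. Before scaling, Selk mRNA was 1.00-fold lower at 0 ppm (0.854 to 1.18) and 1.11-fold lower at 0.1 ppm (0.958 to 1.3). At 2.0 ppm it was 1.17-fold higher (1.01 to 1.37). At 0.1 and 2.0 ppm 8 of 20 (40%) and 10 of 20 genes (50%) had lower footprints in TrspA37G, and none of the 3 genes was among them. In mRNA 4 (20%) and 6 (30%) were lower on these diets, and in efficiency 3 (15%), 6 (30%) and 6 (30%) at 0, 0.1 and 2.0 ppm, again with none of the 3.

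Over the 3 diets the fitted genotype effects (TrspA37G against Wt) did not pass for any of the 3 genes. The nearest was Selo in footprints, at log2 -0.59 (SE 0.21, limma adjusted p 0.0766, unadjusted p 0.0421), lower in 3 of 3 diets. Sels footprints were at -0.39 (SE 0.16, limma adjusted p 0.109), also lower in 3 of 3. Selk footprints were at 0.20 (SE 0.19, limma adjusted p 0.421). In mRNA the effects were 0.02 for Selk, -0.26 for Sels and -0.33 for Selo, with limma adjusted p of 0.897, 0.296 and 0.278. In the same fits 8 of 20 genes (40%) were lower in TrspA37G in footprints, 4 (20%) in mRNA and 2 (10%) in efficiency. After scaling to the median selenoprotein the signs of Sels and Selo in mRNA and footprints turned (0.10 and 0.03 in mRNA, 0.25 and 0.05 in footprints), and Selk footprints were higher in TrspA37G at 0.84 (limma adjusted p 0.0399). Of the 20 genes, the scaled fit called 3 lower and 1 higher in footprints.

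**Figure D4:**
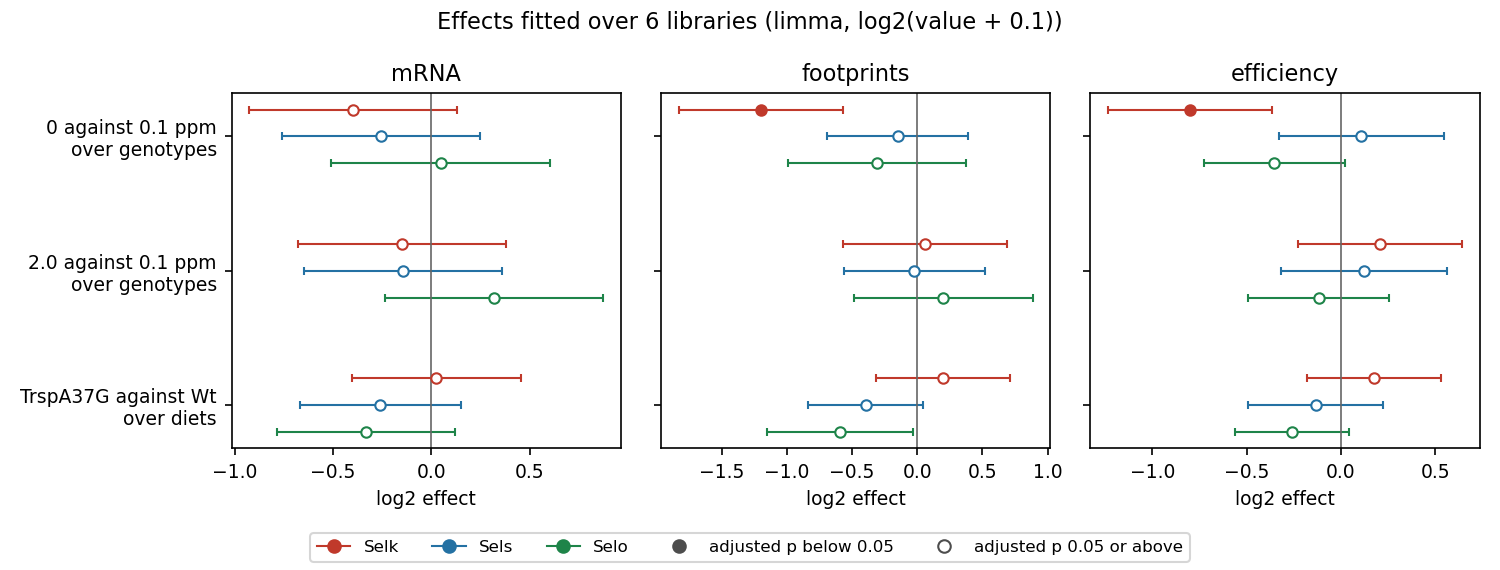
Effects from the additive fit over 6 libraries (log2, with 95% limma intervals) for Selk, Sels and Selo in mRNA, footprints and efficiency; filled points have an adjusted p below 0.05. The filled points are Selk at 0 against 0.1 ppm in footprints (-1.20) and efficiency (-0.80).

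The other selenoproteins with a late UGA, the thioredoxin reductases and the ethanolamine phosphotransferase Seli, were set beside the 3 genes because they too have few codons after it. In Txnrd1 and Txnrd2 the CDS window ends before the UGA. The inferred window of Txnrd3, 1899 nt, is longer than its annotated frame of 615 codons, so where it ends was not settled. In Seli, with the UGA at codon 388 of 398, the window runs on to codon 394 and so takes in footprints past the UGA. At 0 against 0.1 ppm, 2 of 4 were lower in footprints in TrspA37G (Seli and Txnrd3, median log2 -0.74) and 3 of 4 in Wt (Txnrd1, Txnrd2 and Txnrd3, median -0.99), beside 1 of 3 in each genotype for Selk, Sels and Selo (medians -0.52 and -0.11). Between genotypes, 2, 2 and 3 of the 4 were lower in TrspA37G at 0, 0.1 and 2.0 ppm, against 1, 0 and 0 of Selk, Sels and Selo. Over all 20 genes these shares were 60%, 40% and 50%, and between the diets 70% in TrspA37G and 55% in Wt. Txnrd2, the mitochondrial thioredoxin reductase, had 3.97 RPFKM in TrspA37G against 16.3 RPFKM in Wt at 2.0 ppm, a log2 ratio of -2.04, while that of Selo was -0.28. On that diet Txnrd1 was at 36.7 RPFKM in TrspA37G against 64.2 in Wt, and Txnrd3 at 1.07 against 3.38. Seli went the other way on that diet, at 46.4 against 40.9 RPFKM. At 0.1 ppm these 4 genes had the same directions as at 2.0 ppm. At 0 ppm the order differed. Txnrd2 was at 5.5 RPFKM in TrspA37G against 7.54 in Wt there. Selo was further apart on that diet, at 18.6 against 36.2 RPFKM, a log2 ratio of -0.96. Txnrd1 was higher in TrspA37G at 0 ppm, at 34.9 against 28.6 RPFKM. Seli was lower, at 26.0 against 44.2 RPFKM, and Txnrd3 stayed lower. A UGA at the end of the frame went with different ratios in different genes, and no test of the lists against each other was made.

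Of the other selenoproteins of the ER (Sep15, Selm, Selt, Sepn1 and Dio2), 4 of 5 had enough reads. At 0 against 0.1 ppm 3 of these 4 were lower in footprints in TrspA37G (Sep15, Selt and Sepn1, median -1.19) and 2 in Wt (Sep15 and Selt, median -0.35), near the shares of 70% and 55% over all genes. Sep15, a partner of the folding sensor for glycoproteins, was at 50.6 RPFKM at 0 ppm against 120 at 0.1 ppm in TrspA37G, and at 90.1 against 158 in Wt. Of the 2 ER proteins among the 3 genes, Selk was called lower in both genotypes and Sels in neither. In mRNA 0 of the 4 were called between these diets in either genotype.

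Across libraries the 3 genes did not all vary together. Pearson's r of log2(value + 0.1) over the 6 footprint libraries was 0.82 between Sels and Selo, 0.42 between Selk and Selo and 0.11 between Selk and Sels. Over the 6 mRNA libraries it was 0.54, 0.04 and 0.55 for the same pairs. The genes most like Selk were Gpx4 (0.84) and Sep15 (0.78) in footprints and Sepw1 (0.68) and Sep15 (0.66) in mRNA. Those most like Sels were Gpx1 (0.96) and Txnrd3 (0.94) in footprints and Txnrd3 (0.91) and Selh (0.88) in mRNA. For Selo they were Gpx3 and Sephs2 (0.93 each) in footprints and Selt (0.90) and Sephs2 (0.89) in mRNA. These values describe 6 libraries that share genotypes and diets, and 19 other genes were ranked for each.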

How the data were processed

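Livers were frozen and homogenised with cycloheximide, and footprints were made with an RNase and taken from monosomes, per the labels' protocols. Per the submitters' processing notes reads were mapped with Bowtie to mm9; version and filters were not given in the sources used here. Per the file headers, the authors deposited RPKM and RPFKM values for 23 genes, over whole mRNAs, the CDS without its first 15 and last 3 codons, and the parts on either side of the UGA. Column 8 of 3 deposited tables is called mRNA in 1 header line and RPFKM in another, and was read as footprints.

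Whole reads were recovered from the deposited RPKM values: with a CDS window 57 nt shorter than annotated, 95.3% of 258 values came out whole within 0.001, against 9.3% at the best other length. Whole-mRNA lengths were the shortest that gave whole reads, so those reads are the fewest possible. The placement of the windows was inferred from their lengths, with codons from GENCODE M21 (GRCm38). Counted without the stop codon, the 57 nt are more than the first 15 and last 3 codons named in the headers. The end codons therefore rest on an assumed start at codon 16. Genes needed 10 reads over 2 libraries and at least 1 in each, which 20 passed. Intervals for ratios were exact conditional (Clopper-Pearson), those for efficiency an exact odds ratio up to 2000 reads and log-normal above. SciPy and pandas were used in Python 3.11, and limma 3.58.1 with eBayes and a pseudocount of 0.1 in R 4.3.3. Since the deposited values are not counts, the limma fit used no count model, while the intervals treated the recovered reads as counts. The intervals were tested on simulated reads with counting error alone. The fit was tested on simulated genotype effects without interaction, so its diet effects were not covered. Alternatives were median-ratio scaling, other regions, floors, folds, pseudocounts and left-out diets. The genes named were the 3 genes throughout, 2 genes most like each per assay, 2 lists, and a further gene only where it is highest or lowest. The genes and lists were chosen with earlier results of these data known.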

Additional observations from a re-analysis of the deposited data

Results flagged for a closer look

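Of 18 differences between the genotypes in the diet response of Selk, Sels and Selo, 6 had a 95% counting interval that excludes 0, and none reached 1.5-fold. Among all genes 60 of 120 had such an interval and 19 reached 1.5-fold. The intervals cover counting error only, and no difference was tested over animals. Values are TrspA37G minus Wt on the log2 scale. At 0 against 0.1 ppm the difference for Selo was -0.37 in mRNA, which was at log2 -0.14 in TrspA37G and 0.23 in Wt, and -0.42 in footprints (-0.56 to -0.27), at -0.52 in TrspA37G and -0.10 in Wt. At 2.0 against 0.1 ppm it was 0.26 in Selo footprints, 0.39 in Selk mRNA, -0.19 in Sels footprints and -0.30 in Sels efficiency. The responses behind these were 0.33 in TrspA37G and 0.07 in Wt for Selo footprints, 0.04 and -0.34 for Selk mRNA, -0.12 and 0.07 for Sels footprints, and -0.03 and 0.27 for Sels efficiency. The part of sequencing depth and of the scaling of libraries in these values was not tested. No group has more than 1 library, so no library could be set against others of its group.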

How the results depend on the processing

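Of 140 counts of Selk, Sels and Selo past the 1.5-fold rule that were recomputed with 1 choice changed, or with the regions for footprints and mRNA changed together, 122 kept within 1.5 times and 18 moved; of 180 fitted effects 159 kept their sign and side of the threshold, and of 420 log2 ratios 375 stayed within the 95% interval of the value reported. The cause was not tested. Scaling to the median selenoprotein made most of the changes. At 0 against 0.1 ppm footprints in TrspA37G kept a count of 1, but the gene called was Sels, higher, in place of Selk, lower; in Wt 2 genes were called in place of 1. The scaling gave 0 in place of 1 for efficiency at 0 ppm in TrspA37G, 1 in place of 0 in Wt, and between genotypes 0 in place of 1 for mRNA at 0 ppm, 1 in place of 0 for footprints at 0.1 ppm, and 1 in place of 0 for mRNA, footprints and efficiency at 2.0 ppm. For footprints between genotypes at 0 ppm the count stayed at 1, but the gene called was Selk, higher (log2 0.95), in place of Selo, lower, which turned to log2 0.0053. Where no scaled count over all genes is given above, these changed counts are not set against a background.

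Under that scaling the fitted effects reversed for mRNA between genotypes in Selo (0.026) and Sels (0.098), for mRNA at 0 ppm in Sels (0.090), for footprints between genotypes in Selo (0.047) and Sels (0.25), at 0 ppm in Selo (0.35) and Sels (0.51), at 2.0 ppm in Selk (-0.19) and Selo (-0.053), and for efficiency in Selo (0.058) and Sels (0.18) between genotypes and Selo (0.042) at 0 ppm; none of these had passed. Selk footprints between genotypes passed (0.84, limma adjusted p 0.0399), in a fit that called 3 of 20 genes lower and 1 higher. Selk at 0 ppm no longer passed in footprints (-0.54) or efficiency (-0.40, limma adjusted p 0.308). Selk efficiency at 0 ppm also missed the threshold with a pseudocount of 1 (-0.68, adjusted p 0.0539), with no filter on low values (-0.80, adjusted p 0.0611) and with only the diets compared (-0.80); the same holds for footprints with only the diets compared (-1.20). Without the 0 ppm libraries Selk efficiency between genotypes passed (0.27, limma adjusted p 0.0383), in a fit that called 9 of 20 genes lower and 1 higher. Without the 2.0 ppm libraries Selk mRNA between genotypes was at -0.079.

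A threshold of 1.3-fold gave 1 gene in place of 0 for mRNA at 2.0 ppm in TrspA37G and at 0 ppm in Wt and for footprints between genotypes at 0.1 and 2.0 ppm, and 2 in place of 1 for footprints at 0 ppm in TrspA37G and between genotypes at 0 ppm. At 2-fold, 0 in place of 1 remained for mRNA and footprints between genotypes at 0 ppm and for efficiency at 0 ppm in TrspA37G, which the windows 5′ of the UGA also brought to 0. The shares of all genes past these other thresholds are not given here, so the changed counts are not set against a background. Selk footprints rest on 26 to 78 reads, which leaves wide intervals (0.945 to 2.16 for the 1.42-fold ratio of TrspA37G to Wt at 2.0 ppm). No paired analysis was possible because each group has 1 library and the groups share a single replicate number, other than the additive fit itself, which compares TrspA37G with Wt within each of the 3 diets.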
